A study of Homo sapiens with 8 samples.

Results

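The 54 genes described here encode developmental transcription factors of 14 homeodomain and paired-box families outside the HOX clusters, namely the PAX, LHX, NKX, IRX, DLX, MSX, EN, OTX, GSX, GBX, CDX, MEIS, PITX and SIX-family genes. They were chosen by family name, without use of any measured value, and make up 54 of the 19962 protein-coding genes on chromosomes 1 to 22 and X. For each gene, peaks of accessible chromatin were collected over the gene body and within 1 kb of each of its transcription start sites (TSSs) in GENCODE release 44 (the whole gene window), and separately within 1 kb of the TSSs alone (the TSS windows). A gene was called open in a library when at least 1 peak touched the window.

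Accessibility was measured by ATAC-seq, in which the Tn5 transposase cuts open chromatin, in 4 stable lines made from HEK293T cells, a human embryonic kidney line. Each line was infected with a lentiviral vector that carried EZH2, either WT or with the changes Y641F, A677G or H689A/F667I, and was selected with blasticidin, a step that the methods describe as meant to give monoclonal populations. The introduced EZH2 was therefore added to the EZH2 of the host cells in all 4 lines, WT included, and a line may stand for 1 clone. In the study Y641F and A677G are the gain-of-function (GOF) changes and H689A/F667I the loss-of-function (LOF) change, and 2 libraries, described as independent biological replicates, were available for each line. With 2 libraries against 2, an exact permutation test cannot give a p below 0.333, so single values are given as measured.

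The number of peaks differed between libraries, and the differences bear on every count given here. The lists held 64923 and 62514 peaks in the WT line, 26350 and 36598 with Y641F, 38016 and 46358 with A677G, and 47840 and 48755 with H689A/F667I. The read depth of the libraries is not known, and a gene without a peak is a gene at which none was called, not one without signal. In these bulk samples, fewer cells with an open site and less opening per cell cannot be told apart. As a check of the cell line, short lists of lineage genes were counted at their TSSs. Of 7 kidney lineage genes, 6 were open in all 8 libraries, beside 59.2% of all protein-coding genes. All 7 were open in both WT libraries, and each mutant lacked a peak at 1 of them in both of its libraries. Of 8 blood cell genes, 5 were open in no library, beside 22.3% of all genes, and 2 were open in both WT libraries. Of 2 neuronal filament genes, 0 were open in all 8 libraries and 1 in both WT libraries. Lists this short are a weak check. All 23 of 23 broadly used homeodomain genes were open in both WT libraries. Over all protein-coding genes, 14352 of 19962 were open at their TSSs in both WT libraries.

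Homeodomain proteins bind DNA through a compact helical domain that reads short motifs with a TAAT core, and PAX proteins bind through a paired domain, in several members next to a homeodomain. These factors set regional identity in the neural tube, limbs, eye, kidney and gut, and their genes are textbook targets of Polycomb repressive complex 2, the complex in which EZH2 methylates lysine 27 of histone H3. Many of their promoters lie in CpG islands, stretches rich in CG dinucleotides that can be held accessible and silent at the same time, so that a peak at such a gene is no measure of its transcription.

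Most of the 54 genes had accessible chromatin in HEK293T cells, and the same few were closed throughout. In the whole gene window, 39 members (72.2%) were open in all 8 libraries, 9 (16.7%) in 1 to 7 libraries and 6 (11.1%) in none, against 64.7%, 20.7% and 14.6% of all protein-coding genes. In the TSS windows the counts were 37 members (68.5%), 8 (14.8%) and 9 (16.7%), against 59.2%, 18.5% and 22.3%. The 6 members without a peak anywhere were LHX3, a LIM homeodomain factor of the pituitary and motor neurons, NKX6-2, a factor of oligodendrocytes, SIX3 and SIX6, which pattern the forebrain and eye, and the Iroquois genes IRX1 and IRX2. LHX5, OTX2 and CDX1 had peaks only away from their TSSs.

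The contrast between open and closed members can be read beside their promoter sequences. RefSeq promoters, from 250 bases before to 50 bases after the start in GRCh38.p14, were matched for 40 of the 54 members. These promoters held a median of 26.5 CG dinucleotides, against 22 over 15315 protein-coding promoters, and 38 of the 40 held at least 10, against 73.6% of all. The 5 matched members, of 9 without a TSS peak, had a median of 32. The 29 matched members open at the TSS windows in all 8 libraries had a median of 30, so the median was not lower in the closed members. At least 10 were held by 4 of the 5 closed members and by all 29 open ones. TAAT, searched on both strands as TAAT and ATTA, occurred in 24 of the 40 member promoters and in 41.9% of all promoters, and a match is a description of the sequence only.

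Shown first are the 250 bases before the start of NKX2-3, whose TSS peak had the highest mean fold enrichment among members open in all libraries, and of IRX1, which had no peak in any library although its matched window held 38 CG dinucleotides, the most among the matched members without a TSS peak. Capitals mark CG. NKX2-3 lies at chr10:99532692-99532941 and IRX1 at chr5:3595582-3595831, both on the plus strand of GRCh38.p14.
NKX2-3: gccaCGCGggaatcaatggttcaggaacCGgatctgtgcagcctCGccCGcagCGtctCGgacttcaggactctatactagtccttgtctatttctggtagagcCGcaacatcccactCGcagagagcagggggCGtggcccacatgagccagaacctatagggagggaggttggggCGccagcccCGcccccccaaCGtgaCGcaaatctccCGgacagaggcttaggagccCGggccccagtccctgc
IRX1: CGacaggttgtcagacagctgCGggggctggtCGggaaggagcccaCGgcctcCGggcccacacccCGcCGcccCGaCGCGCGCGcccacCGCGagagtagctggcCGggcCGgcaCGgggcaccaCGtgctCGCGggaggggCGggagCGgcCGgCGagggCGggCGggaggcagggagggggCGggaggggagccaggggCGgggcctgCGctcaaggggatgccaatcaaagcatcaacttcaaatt
The printed bases held 16 CG dinucleotides for NKX2-3 and 29 for IRX1. The TSS windows of NKX2-3 held a peak in each of the 8 libraries, with a fold enrichment over local background of 6.13 and 5.03 in the WT libraries, 5.56 and 5.10 with Y641F, 5.66 and 5.36 with A677G, and 5.77 and 5.63 with H689A/F667I. The fold is the authors' value for the whole peak, an average over its width, and the mutant values lay within the range of the WT pair.

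A peak in a TSS window was not always a peak on the RefSeq start itself. Of the 40 members with a matched promoter, 27 and 25 had a peak on the 300 promoter bases in the WT libraries, 19 and 23 with Y641F, 24 and 22 with A677G, and 23 and 24 with H689A/F667I. The corresponding share of members was 67.5% and 62.5% in WT, against 66.3% and 65.7% of 15315 promoters. In each of the 6 mutant libraries the share of members was the lower one, with 47.5% and 57.5% against 53.5% and 59.5% for Y641F, and 55.0% against 62.9% in A677G replicate 2, the widest gap. In PAX6, PAX9 and LHX9, for example, the RefSeq window was not touched in any library although other annotated starts were open in all 8. Another gene's TSS lay within the window of 16 members, and for PAX6 and NKX2-1 it was that of a protein-coding gene, so peaks there cannot be assigned to 1 gene.

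**Figure D1:**
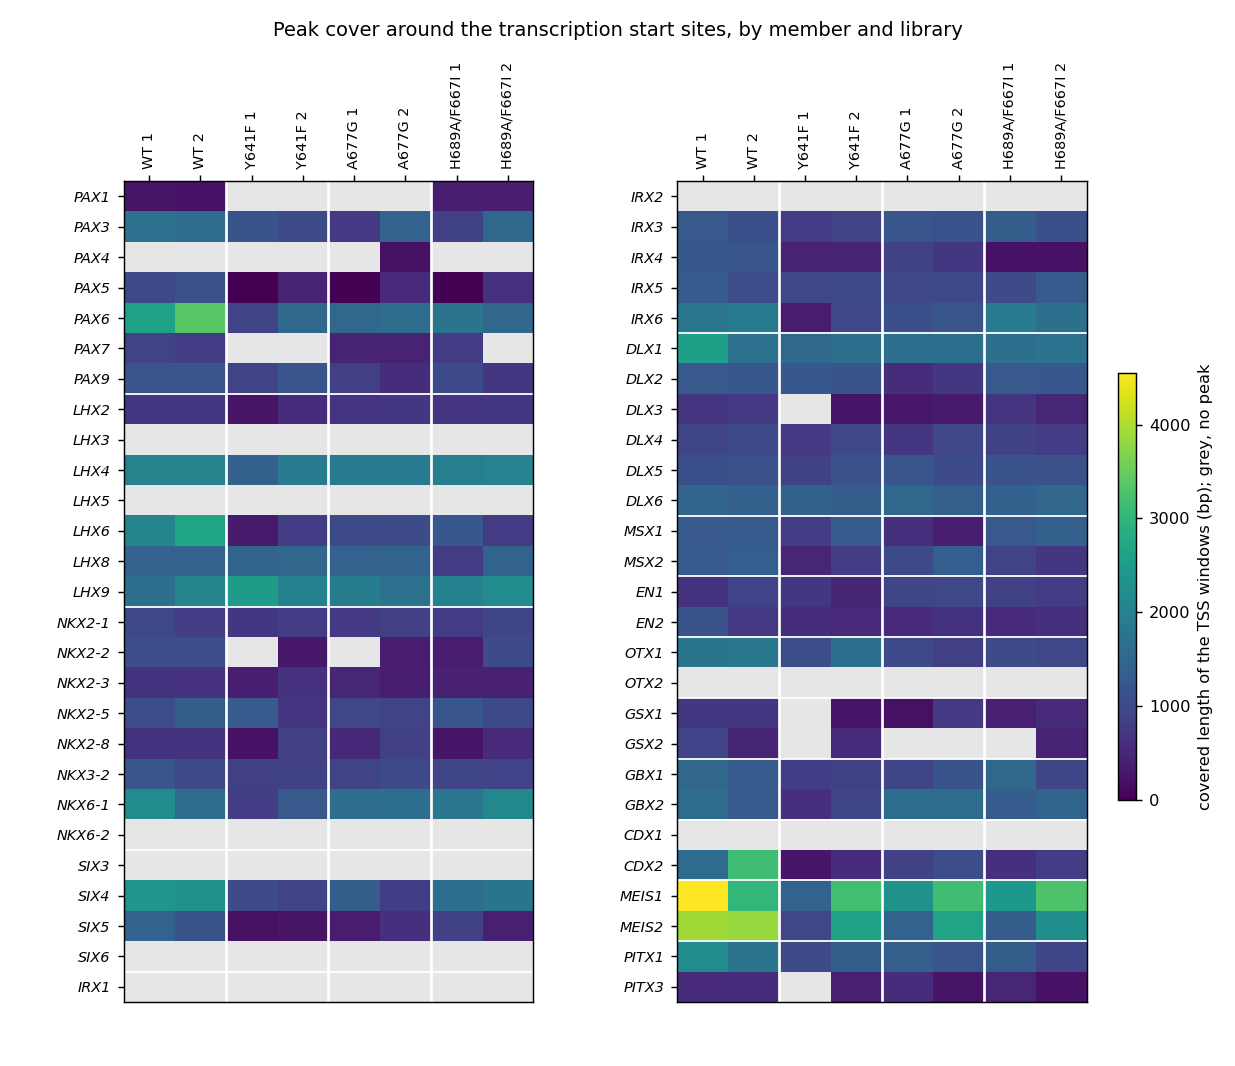
Covered length of the TSS windows in bp (colour) for each of the 54 members (rows, ordered by family) in each of the 8 libraries (columns). Grey marks a member without a peak in that library, and 9 members were grey in all 8. The scale runs from dark (low) to bright (high), and the highest value is that of MEIS1 in WT replicate 1 (4550 bp).

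The cover of the TSS windows, the number of bases within 1 kb of a TSS that lay inside a peak, was used as the measure of how much chromatin was called open. Cover is summed over all annotated starts, so genes with many starts have larger windows, and its level is compared between lines and not between genes. In the plot of cover by member and library, the families are taken in turn.

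PAX genes encode paired-box factors. PAX6, the eye and forebrain regulator, had a TSS cover of 2595 and 3367 bp in the WT libraries, 941 and 1518 bp with Y641F, 1533 and 1615 bp with A677G, and 1754 and 1503 bp with H689A/F667I. All 6 mutant libraries lay below both WT libraries. PAX5, the B-cell identity factor, had 1002 and 1120 bp in the WT libraries, 14 and 450 bp with Y641F, 23 and 548 bp with A677G, and 21 and 640 bp with H689A/F667I. In replicate 1 of each mutant the PAX5 peak only touched the edge of a window. PAX3, a neural crest factor, fell to 66.9%, 65.8% and 72.6% of its WT mean in Y641F, A677G and H689A/F667I, without overlap with WT. PAX9, which acts in tooth and thymus, kept 934 and 1202 bp in Y641F against 1200 and 1219 bp in WT, which overlap, and lay below WT in the other 2 mutants. PAX4, a factor of pancreatic beta cells, had 1 peak of 200 bp in A677G replicate 2 and none elsewhere.

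The LIM homeodomain genes kept 81.0% and 82.0% of their WT cover in A677G and H689A/F667I. LHX8 and LHX9, neuronal and gonadal factors, had covers of 1428 and 1450 bp and of 1682 and 2073 bp in WT. In Y641F they had 1463 and 1506 bp and 2517 and 1992 bp, and LHX8 was the only member whose 2 Y641F values both exceeded WT. LHX4, the pituitary factor with the most WT cover over the whole gene window in its family, had 2035 bp in each WT library and 1398 to 2018 bp in the mutants, all of them below. LHX6, a factor of cortical interneurons, moved most in this family, from 2062 and 2676 bp in WT to 324 and 828 bp with Y641F, 1027 and 1055 bp with A677G, and 1248 and 804 bp with H689A/F667I. LHX5, open only in an exon more than 9 kb from its nearest start, had that peak in 7 libraries and lacked it in Y641F replicate 1.

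NK homeodomain genes showed both stable and variable starts. NKX2-1, the thyroid and lung factor, had 979 and 834 bp in the WT libraries, 736 and 791 bp with Y641F, 769 and 857 bp with A677G, and 811 and 949 bp with H689A/F667I, so only Y641F lay wholly below WT. Its neighbours on chromosome 14 are NKX2-8 and PAX9, in that order, and the 5′ end of NKX2-8 lies 61.5 kb from that of NKX2-1. NKX2-8 overlapped WT in Y641F and A677G, with 231 and 865 bp and with 526 and 867 bp against 666 and 665 bp, and lay below it in H689A/F667I at 253 and 534 bp. NKX2-2, which specifies ventral spinal cord neurons, had 1077 and 1067 bp in the WT libraries, 0 and 287 bp with Y641F, 0 and 373 bp with A677G, and 370 and 1034 bp with H689A/F667I. NKX6-1, a factor of beta cells and motor neurons, had 2193 and 1614 bp in WT and lay below this only in Y641F, at 825 and 1271 bp.

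SIX-family and IRX genes differed between members of the same cluster. SIX4, a muscle and placode factor, had 2379 and 2344 bp in the WT libraries, 1043 and 937 bp with Y641F, 1334 and 836 bp with A677G, and 1660 and 1777 bp with H689A/F667I, while SIX6, 215 kb away on chromosome 14, was closed in all 8 libraries. SIX5 fell to 17.2%, 38.3% and 50.3% of WT in Y641F, A677G and H689A/F667I. IRX4, an Iroquois factor of the heart ventricle, had 1258 and 1216 bp in the WT libraries, 447 and 448 bp with Y641F, 896 and 712 bp with A677G, and 225 and 227 bp with H689A/F667I. It was thus lowest in the LOF line, and its cluster neighbours IRX1 and IRX2 had no peak. In the other Iroquois cluster, IRX3 and IRX5 kept 72.9% and 84.2% of the WT cover in Y641F and 103% and 99.7% in H689A/F667I. IRX6, the third gene of that cluster, had 1791 and 1870 bp in the WT libraries, 364 and 961 bp with Y641F, 1115 and 1216 bp with A677G, and 1891 and 1683 bp with H689A/F667I, below WT in both GOF lines and overlapping it in the LOF line.

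DLX genes, which pattern the jaw, limbs and forebrain in convergent pairs, kept the largest share of their cover in Y641F. DLX5 and DLX6 on chromosome 7, 19.4 kb apart, had 1117 and 1126 bp and 1478 and 1399 bp in WT. Their mutant values were 873 to 1225 bp and 1339 to 1518 bp, and DLX6 overlapped WT in every mutant. DLX1 and DLX2 on chromosome 2, 18.2 kb apart, kept 75.6% and 96.9% of WT in Y641F and 78.1% and 53.3% in A677G. DLX2 lay below WT only in A677G, at 594 and 744 bp against 1269 and 1243 bp. In the pair on chromosome 17, DLX3 had 691 and 762 bp in the WT libraries, 0 and 260 bp with Y641F, 299 and 337 bp with A677G, and 683 and 489 bp with H689A/F667I, whereas DLX4, 26.6 kb away, kept 88.6%, 86.3% and 86.8%.

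The remaining families have 2 members each. MSX1, a tooth and limb factor, had 1276 and 1281 bp in the WT libraries, 807 and 1297 bp with Y641F, 615 and 383 bp with A677G, and 1276 and 1401 bp with H689A/F667I, so only A677G fell below WT. EN1, the limb and hindbrain factor, was the only member above WT in A677G, with 956 and 964 bp against 662 and 921 bp. EN2 had 1172 and 758 bp in WT and 541 to 672 bp in the mutants. OTX1, a forebrain factor, had 1772 and 1813 bp in the WT libraries, 1101 and 1665 bp with Y641F, 1010 and 862 bp with A677G, and 1056 and 970 bp with H689A/F667I. GSX1, which acts in the hypothalamus, had 737 and 723 bp in the WT libraries, 0 and 262 bp with Y641F, 209 and 750 bp with A677G, and 404 and 541 bp with H689A/F667I. GBX1 and GBX2, hindbrain boundary factors, kept 61.6% and 53.8% of WT in Y641F and 75.5% and 111% in A677G.

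CDX2, the intestinal and trophoblast factor, had the widest spread within WT, at 1586 and 3141 bp, and 281 and 584 bp with Y641F, 871 and 1095 bp with A677G, and 608 and 834 bp with H689A/F667I. All 6 mutant libraries lay below both WT libraries. MEIS1, a cofactor of HOX proteins, had 4550 and 3004 bp in the WT libraries, 1432 and 3167 bp with Y641F, 2335 and 3158 bp with A677G, and 2434 and 3287 bp with H689A/F667I, and overlapped WT in each mutant. MEIS2 had 3907 and 3840 bp in WT and 969 to 2665 bp in the mutants, without overlap. PITX1, the hindlimb factor, had 2190 and 1755 bp in WT and 955 to 1385 bp in the mutants, also without overlap. PITX3, a factor of dopaminergic neurons and the lens, had 540 and 592 bp in the WT libraries, 0 and 402 bp with Y641F, 578 and 247 bp with A677G, and 480 and 229 bp with H689A/F667I.

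Few members lost all of their peaks. A member counted as lost where each WT library had a peak and no library of the mutant did, and as gained in the reverse case. In the whole gene window, CDX1, OTX2 and PAX1 were lost in Y641F, 3 of the 47 members open in WT (6.38%), beside 6.94% of all protein-coding genes. GSX2, OTX2 and PAX1 were lost in A677G, 3 of 47, beside 2.53%, and 0 of 47 were lost in H689A/F667I, beside 1.72%. None of the 7 members closed in WT was gained in any mutant, where 0.476%, 0.655% and 0.982% of all genes closed in WT were gained in Y641F, A677G and H689A/F667I. The counts of members are too small to be set apart from these shares.

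At the TSS windows, PAX7 and PAX1 were lost in Y641F, 2 of 44 members beside 6.72% of all genes, and GSX2 and PAX1 in A677G, 2 of 44 beside 2.24%. No member was lost at its TSSs in H689A/F667I, beside 1.53%, and none of 10 was gained, beside 0.224%, 0.326% and 0.631%. The 2 GOF lines were also set against the other 2 lines together. In the whole gene window OTX2 and PAX1 had a peak in each of the 4 WT and LOF libraries but in no GOF library, 2 of 46 members beside 0.458% of all genes, and at the TSSs this held for PAX1 alone, 1 of 42 beside 0.314%. No member showed the reverse. The retained members, open in all 4 libraries of a comparison, were 37, 41 and 42 of 44 at the TSSs for Y641F, A677G and H689A/F667I (84.1%, 93.2% and 95.5%), beside 83.0%, 93.6% and 95.4% of all genes.

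Of the lost members, PAX1, OTX2, GSX2 and PAX7 had peaks of low significance in WT, and CDX1 had stronger ones. Printed below are the bases shared by the peaks of PAX1, OTX2 and CDX1, read from hg38 on the plus strand. These members had no other peak, and their loss rests on these stretches alone. GSX2 also had no other peak, and its bases are not printed. Capitals mark CG. The PAX1 stretch, chr20:21705852-21705994, lies in the coding part of the first exon and was common to all 4 of its peaks. The OTX2 stretch, chr14:56807680-56807956, is intronic and was common to 3 of its 4 peaks. The CDX1 stretch, chr5:150175635-150175791, is intronic and was common to all 5 of its peaks.
PAX1: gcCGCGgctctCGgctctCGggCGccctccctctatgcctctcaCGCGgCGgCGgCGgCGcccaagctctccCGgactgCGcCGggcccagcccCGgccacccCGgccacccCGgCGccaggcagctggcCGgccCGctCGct
OTX2: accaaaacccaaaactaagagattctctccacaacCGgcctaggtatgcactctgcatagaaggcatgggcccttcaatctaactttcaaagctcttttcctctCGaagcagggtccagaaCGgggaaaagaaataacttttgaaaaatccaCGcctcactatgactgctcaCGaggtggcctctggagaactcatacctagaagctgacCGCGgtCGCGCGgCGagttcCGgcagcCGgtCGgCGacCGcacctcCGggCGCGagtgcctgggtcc
CDX1: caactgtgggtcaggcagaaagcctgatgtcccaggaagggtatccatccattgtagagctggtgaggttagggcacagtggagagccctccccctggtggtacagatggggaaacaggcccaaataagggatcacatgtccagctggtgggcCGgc
The stretches held 21 CG in 143 bases for PAX1, 19 in 277 bases for OTX2 and 1 in 157 bases for CDX1.

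PAX1 acts in the vertebral column and thymus. Its peak was 233 and 230 bp wide in WT, with a −log10 q of 2.86 and 4.75, and 380 and 339 bp wide in H689A/F667I, with 1.49 and 3.24, where the lists reach down to a −log10 q of 1.00. No PAX1 peak was called in the 4 GOF libraries, so the TSS cover was higher than WT in both LOF libraries and 0 in the GOF lines. OTX2, the forebrain and midbrain factor, had intronic peaks of 953 and 499 bp in WT with a −log10 q of 2.17 and 2.18, and of 244 and 410 bp in H689A/F667I with 1.66 and 2.57. The LOF replicate 1 peak lay apart from the bases shared by the other 3, so OTX2 was open in all WT and LOF libraries without 1 common stretch. NKX2-2, 192 kb from PAX1, was not called lost, since 1 library of each GOF line kept a peak.

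CDX1, the intestinal partner of CDX2, had peaks of 346 and 332 bp in WT with a −log10 q of 7.22 and 6.76, 1 peak of 449 bp in A677G replicate 1, and peaks of 387 and 278 bp in H689A/F667I. It thus had a stronger WT peak than PAX1 or OTX2 and was closed in both Y641F libraries and in A677G replicate 2. GSX2, a factor of the ventral forebrain, had TSS peaks with a fold of 3.64 and 2.84 in WT, 3.26 in Y641F replicate 2 and 3.24 in H689A/F667I replicate 2, and none in the other 4 libraries. The −log10 q of the GSX2 peaks in WT was 2.92 and 1.35. PAX7, the muscle satellite cell factor, had a TSS fold of 3.03 and 3.18 in WT, 3.53 and 3.93 in A677G, and 3.23 in H689A/F667I replicate 1. Its −log10 q at the TSSs was 1.61 and 1.69 in WT. It had no TSS peak in Y641F, and 1 intronic peak in each Y641F library, which in replicate 1 lay in a region open in both WT libraries and in replicate 2 in a region open in no other library.

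These calls moved with the number of peaks, and shares over all genes are not given for the settings that follow. Y641F replicate 1 had the fewest peaks, and without Y641F replicate 2, so that the call rested on replicate 1, 8 members were lost in the whole gene window and 7 at the TSSs. With the same number of peaks taken from each library, the 26350 with the highest −log10 p, 1 member was lost with Y641F, 0 with A677G, and 0 with H689A/F667I in the whole gene window, and none was closed in all GOF and open in all other libraries.

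Loss of cover was wider than loss of whole peaks. The TSS windows of the 54 members held 63.7 ± 1.38 kb of peaks in WT (mean ± SD, n = 2), 37.5 ± 7.90 kb in Y641F, 43.4 ± 3.04 kb in A677G and 46.8 ± 1.59 kb in H689A/F667I. As a log2 ratio to WT this was −0.76, −0.55 and −0.45, beside −0.72, −0.44 and −0.28 over all protein-coding genes. In the whole gene window the members fell from 88.6 kb in WT to 44.7 kb in Y641F and all genes from 33.0 to 16.5 Mb, nearly the same share. The log2 ratios there were −0.99 for the members in Y641F, −0.63 in A677G beside −0.65 over all genes, and −0.47 in H689A/F667I beside −0.41. The number of TSS peaks changed less, with log2 ratios of −0.30, 0.00 and −0.09 beside −0.37, −0.16 and −0.11, so the remaining peaks were narrower. With an equal number of peaks per library the TSS cover ratios of the members were −0.43, −0.37 and −0.26. Their peak number ratios turned to 0.17, 0.22 and 0.17. Ratios over all genes are not given at this setting, so these values do not tell the members from other genes.

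Member by member, both Y641F libraries lay below both WT libraries for 31 of the 44 members open at their TSSs in WT (70.5%), beside 80.0% of all such genes. For A677G the count was 28 of 44 (63.6%) beside 64.8%, and for H689A/F667I 25 of 44 (56.8%) beside 51.1%. Higher cover without overlap was seen only for LHX8 in Y641F (0.369% of all genes), EN1 in A677G (1.24%), and PAX1 and DLX5 in H689A/F667I (3.25%). The shares of members were near those of all genes in each line. In 17 of the 44 members (38.6%), beside 35.9% of all such genes, all 3 mutants lay below WT, namely PAX3, PAX5, PAX6, LHX2, LHX4, LHX6, NKX2-2, NKX2-3, SIX4, SIX5, IRX4, DLX3, EN2, OTX1, CDX2, MEIS2 and PITX1, comparisons that share the WT libraries.

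**Figure D2:**
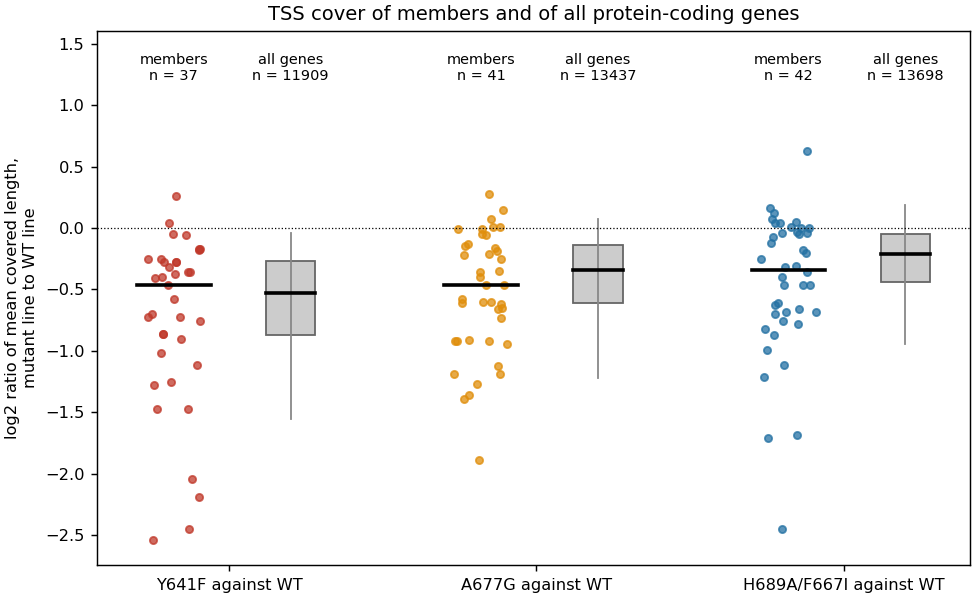
Log2 ratio of mean TSS cover, mutant line to WT line, for members open in all 4 libraries of the comparison (points, with the median as a black bar) and for all protein-coding genes selected the same way (grey box, 25th to 75th percentile, with the median, and line, 5th to 95th percentile). The member medians were −0.46, −0.46 and −0.34 and those of all genes −0.53, −0.34 and −0.21.

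Among members open in all 4 libraries of a comparison, the median log2 ratio of TSS cover was −0.46 in Y641F (37 members), −0.46 in A677G (41 members) and −0.34 in H689A/F667I (42 members). The same medians over all genes were −0.53, −0.34 and −0.21. The lowest member values were those of SIX5 in Y641F (−2.54), PAX5 in A677G (−1.89) and IRX4 in H689A/F667I (−2.45). The plot of cover ratios shows that the members spread more widely than their medians differ from those of all genes.

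By family, TSS cover in Y641F ranged from 18.3% of WT for CDX and 29.5% for GSX to 77.2% for OTX and 81.1% for DLX. The GSX value rests on 0 bp in replicate 1 and 839 bp in replicate 2, and was 59.0% without replicate 1 and 0% without replicate 2. Leaving out Y641F replicate 2 also took CDX to 11.9% and MEIS from 53.6% to 31.4%. In A677G the GSX value of 33.7% became 52.8% without replicate 1 and 14.7% without replicate 2, and in H689A/F667I its 48.9% became 28.4% without replicate 2. No other family moved by over 1.5 times when a library of the mutant or of WT was left out. CDX and OTX each rest on the cover of 1 member, CDX2 and OTX1, since CDX1 and OTX2 had no TSS peak. The 4 SIX-family genes had 3651.5 ± 214 bp of TSS cover (WT), 1212.5 ± 43.1 bp (Y641F), 1578.5 ± 182 bp (A677G) and 2367.0 ± 277 bp (H689A/F667I) (mean ± SD, n = 2). PAX genes had 8005.5 ± 470 bp, 3645.5 ± 822 bp, 4239.0 ± 847 bp and 4814.0 ± 86.3 bp in the same order. DLX genes had 7657.5 ± 578 bp, 6207.0 ± 523 bp, 6082.5 ± 111 bp and 7005.0 ± 96.2 bp. The order of the mutants was not the same in each family. OTX was lowest in A677G (52.2%), and GBX was near WT in A677G (93.5%) and H689A/F667I (92.5%) but not in Y641F (57.6%).

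**Figure D3:**
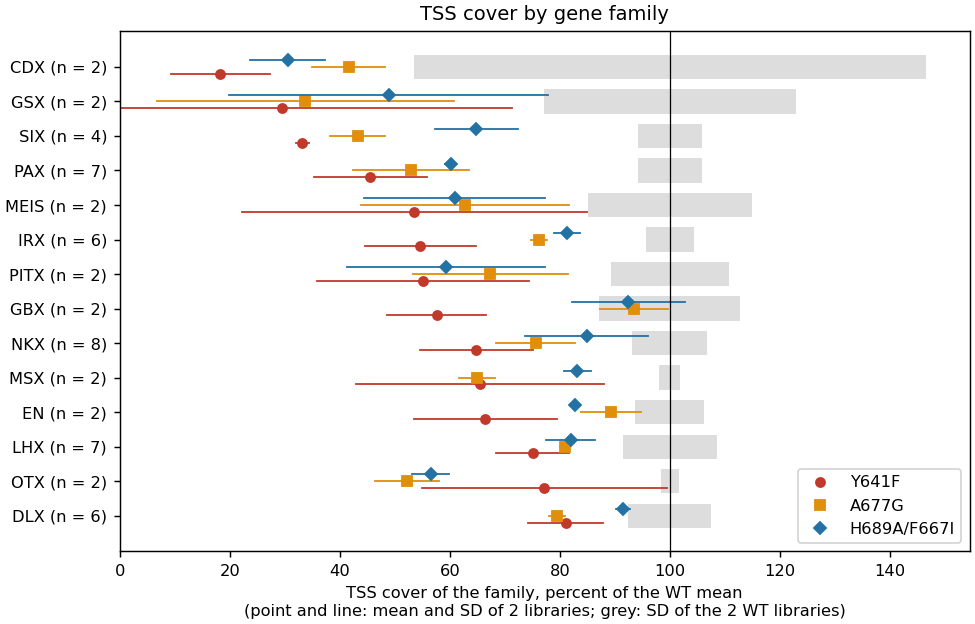
TSS cover of each family as a percent of its WT mean (horizontal axis), for Y641F, A677G and H689A/F667I, with families ordered by the Y641F value and the number of members in brackets. Points and lines are the mean and SD of 2 libraries, and grey bars the SD of the 2 WT libraries. CDX, GSX and the SIX-family genes lie furthest below 100% in Y641F, and DLX lies closest to it.

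Width and fold told different parts of this. In WT the widest TSS peak of a member had a median width of 1391 and 1340 bp, against 1170 and 1157 bp over all genes with a TSS peak. In the mutants the member medians were 848 and 904 bp with Y641F, 896 and 941 bp with A677G, and 1024 and 955 bp with H689A/F667I, against 741 to 994 bp over all genes. Member peaks had the larger median in 7 libraries and the smaller one in H689A/F667I replicate 2. The highest fold per member had a median of 3.54 and 3.72 in WT, against 4.23 and 4.27 over all genes, and of 3.69 to 3.91 in the mutants, against 4.01 to 4.19. The −log10 p of these peaks had a member median of 8.98 and 9.75 in WT and 7.25 to 8.50 in the mutants, against 11.5 and 11.2 and 7.41 to 9.42 over all genes.

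**Figure D4:**
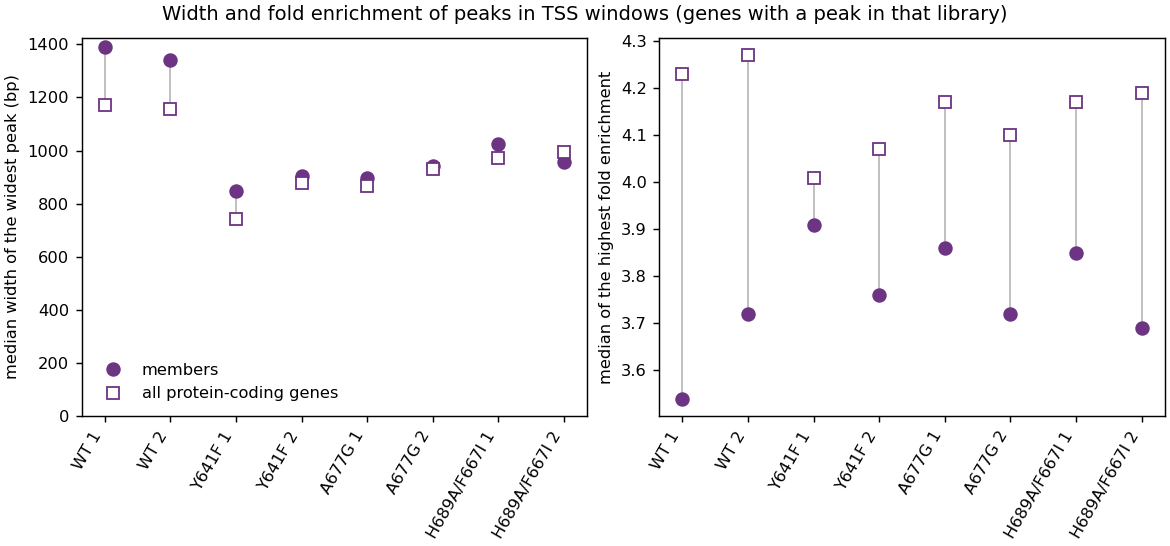
Median width in bp of the widest TSS peak per gene (left) and median of the highest TSS fold per gene (right, axis not starting at 0), for members (filled circles) and all protein-coding genes (open squares) with a peak in that library. Member peaks were wider than those of all genes in WT (1391 and 1340 bp against 1170 and 1157 bp), and had a lower median fold in each library.

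Overlapping peaks from the 8 libraries were joined, which gave 115 regions in the windows of the members, none of them shared by 2 members. Of these, 57 lay in TSS windows, 11 in exons and 47 in introns. Only 40 regions were open in all 8 libraries, 38 of them in TSS windows, and 25 were open in 1 library. Of the 54 TSS regions open in both WT libraries, Y641F lost 5 (9.26%), A677G 4 (7.41%) and H689A/F667I 2 (3.70%), beside 13.7%, 5.99% and 3.83% of all TSS regions. Away from the TSSs, 15 of 26 (57.7%), 7 of 26 (26.9%) and 6 of 26 (23.1%) were lost, beside 47.3%, 28.6% and 19.7% of all such regions. The share lost was larger away from the TSSs than at them in each mutant, for members as for all genes.

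PAX5 and MEIS1 held the most gene body peaks. PAX5 had 19 regions, 17 of them intronic, and 14 and 12 peaks in WT, 2 and 6 with Y641F, 7 and 9 with A677G, and 5 and 11 with H689A/F667I. Its covered length over the whole gene window was 6937 and 6881 bp in the WT libraries, 620 and 2452 bp with Y641F, 3598 and 3570 bp with A677G, and 2662 and 5059 bp with H689A/F667I. MEIS1 had 12 regions and 8 and 10 peaks in WT, 4 and 4 with Y641F, 5 and 5 with A677G, and 3 and 7 with H689A/F667I. All mutant libraries lay below WT in peak number for both genes. PITX3 had an exonic region more than 10 kb from its nearest start that was open in all 8 libraries, as was a region in an exon of LHX8, and these were the 2 regions outside TSS windows that every library held.

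The fold enrichment of regions open in all 8 libraries was compared by limma, fitted on log2 of the highest peak fold of each of the 18787 such regions, centred on the median of each library, with Benjamini-Hochberg adjustment and a threshold of 0.05. In Y641F against WT, 3 of the 40 member regions had a higher fold (7.50%), beside 0.852% of all regions, and none a lower fold, beside 0.378%. Without centring, the median log2 change over all regions was −0.12, 88 regions were higher and 1087 lower by limma, and 3 member regions were higher and 1, at NKX2-1, lower, so changes are relative to that shift. At an unadjusted p below 0.05, 14 of the 40 member regions were higher (35.0%), beside 13.0% of all regions. In the other direction 1 was lower (2.50%), beside 8.30%. The gap between such shares was not tested. By limma, no region was called in A677G or H689A/F667I against WT, 0% in either direction in each line. At an unadjusted p below 0.05 the members had 7 higher (17.5%) and 1 lower (2.50%) in A677G, beside 8.53% and 6.10% of all regions. In H689A/F667I, 3 were higher (7.50%) and 0 lower, beside 5.24% and 3.85%. For the mean of the GOF lines against the mean of WT and LOF, 0.0319% of all regions were higher and 0.00532% lower, with no member region among them. Without adjustment 12 member regions were higher (30.0%) and 1 lower (2.50%) in that contrast, beside 11.1% and 7.26%. No member region was called between mutants by limma, where the lowest adjusted p was 0.164, and 0%, 0.00532% and 0% of all regions were called for Y641F against A677G, Y641F against H689A/F667I and A677G against H689A/F667I. At an unadjusted p below 0.05 these contrasts held 5, 6 and 2 of the 40 member regions, near the 9.94%, 12.8% and 6.74% of all regions.

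The 3 regions lay at annotated starts of PAX6, CDX2 and SIX4. That of PAX6 was not the RefSeq start, which no peak touched in any library, and the PAX6 window also holds another protein-coding gene's TSS. At PAX6 the fold was 3.16 and 3.27 in the WT libraries, 4.32 and 4.39 with Y641F, 3.69 and 3.58 with A677G, and 3.55 and 3.57 with H689A/F667I. At CDX2 it was 3.57 and 3.05, 4.84 and 4.89, 3.74 and 4.03, and 4.72 and 3.66 in the same order. At SIX4 it was 2.79 and 2.98, 3.87 and 4.52, 4.69 and 3.63, and 4.56 and 4.57. All mutant libraries lay above WT in the 3 regions. The log2 change in Y641F was 0.59 (SE 0.09) for PAX6, 0.71 (SE 0.14) for CDX2 and 0.69 (SE 0.13) for SIX4, each with a limma adjusted p of 0.0428.

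The same regions were narrower in Y641F. PAX6 had 2049 and 2747 bp in peaks in WT and 941 and 1128 bp in Y641F, CDX2 1586 and 3267 bp and 281 and 584 bp, and SIX4 3402 and 3193 bp and 1428 and 1689 bp. The fold of a peak is an average over its width, so it is read beside the cover. The fold multiplied by the covered length was also fitted, centred on the median of each library. Its log2 change was 0.00 for PAX6, −1.27 for CDX2 and −0.04 for SIX4, with limma adjusted p-values of 0.996, 0.1 and 0.923. These changes are relative to the shift of all regions, and a value near 0 does not mean an unchanged product. None of the 3 calls was kept when any 1 library was left out of the limma fit, with adjusted p-values of 0.054 to 0.194 over those fits.

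**Figure D5:**
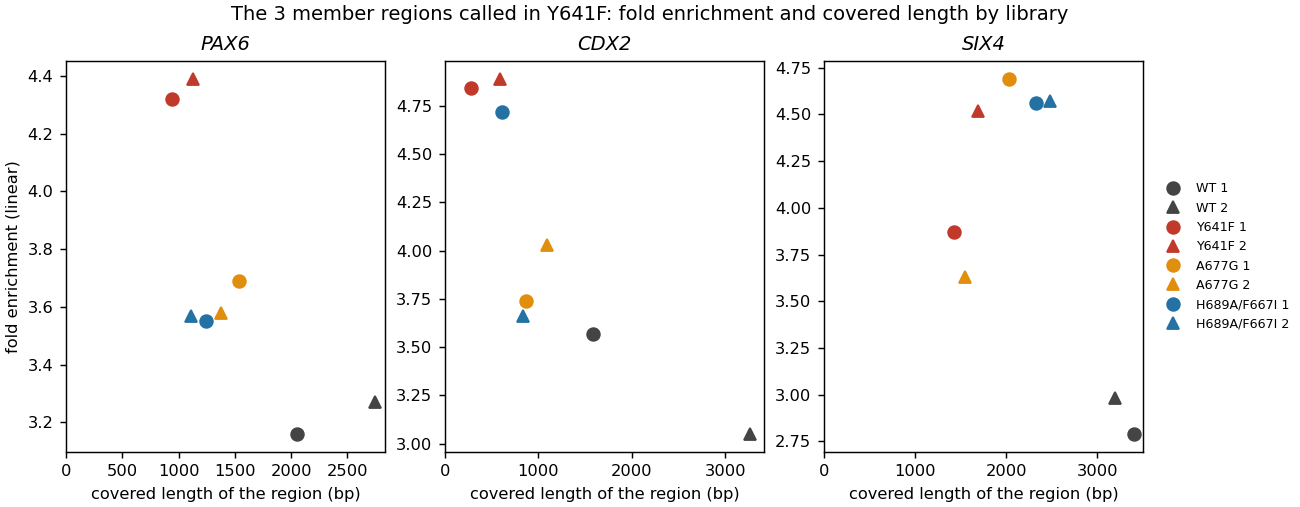
Fold enrichment (vertical axis, linear, not starting at 0) against covered length in bp (horizontal axis) of the PAX6, CDX2 and SIX4 TSS regions in the 8 libraries (colour, line; circle, replicate 1; triangle, replicate 2). In each panel the 2 Y641F libraries have a higher fold and less cover than the 2 WT libraries.

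Other developmental homeodomain genes, a list of 49 genes such as those of the EMX, ISL, BARHL, PHOX2 and POU3F families, were counted in the same way. At their TSSs 25 of 49 were open in all 8 libraries and 14 in none, against 37 and 9 of the 54 members. Of the 32 open in both WT libraries, 2 were lost in Y641F and 0 in the other 2 mutants, and 26, 29 and 29 were retained. None was gained. Of the 23 broadly used homeodomain genes, such as PBX and TGIF genes, 2 were lost in Y641F and 0 in the other 2 mutants. Over all genes open at their TSSs in WT, 6.72%, 2.24% and 1.53% were lost in Y641F, A677G and H689A/F667I. The counts of both lists are too small to be set apart from these shares.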

How the data were processed

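ATAC-seq peak lists of 8 libraries were used. According to the study's methods and the submitters' processing notes, the authors trimmed reads with Trim Galore 0.6.5, aligned them to GRCh38/hg38 with BWA 0.7.17, removed duplicates with Samtools and called peaks in each library with MACS2 2.2.7.1. The deposited broad-peak lists give a fold (the ratio of pileup to background), a −log10 p, a −log10 q and a score, which was not used. These are averages over the peak. Transposase read shifts, removal of mitochondrial reads and read depth are not given in the sources used here, so a count test could not be run.

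Groups and replicate numbers came from the sample titles. Peaks on chromosomes 1 to 22 and X were assigned with an overlap of at least 1 bp, and the 12 to 15 other peaks per library were left out. Regions were tested with limma 3.58.1 in R 4.3.3, and the rest was computed in Python 3.11.15 with pandas 2.3.3. Overlap calls and the limma fit were tested on simulated data. The limma test takes the 2 libraries of a line as independent. Promoter sequences are those of RefSeq. Members, gene lists and the rule for named genes (lost, gained and never open members, the member of each family with the most WT cover, called regions, and genomic neighbours) were chosen with earlier results of these data known. Further genes of the families were named after their values were seen. Other peak thresholds, equal peak numbers, other windows and overlaps, other region values and left-out libraries were tried.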

Additional observations from a re-analysis of the deposited data

Results flagged for a closer look

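PAX1 was the only member whose TSS cover moved in opposite directions without overlap in 2 mutants. Both libraries of Y641F and of A677G lay below both WT libraries, with a mean that fell by 232 bp in each line, and both libraries of H689A/F667I lay above WT, with a mean 128 bp higher. The difference between the lines was not tested, and it rests on a peak of 230 to 380 bp with a −log10 q of 1.49 to 4.75.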

How the results depend on the processing

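Of 462 recomputed summary values, 339 kept their direction and stayed within 1.5 times a count or within the replicate spread of a level, 118 moved and 5 reversed. The causes were not tested, apart from peak number, which the settings themselves change. Counts of members and ratios below are of members alone. The share over all genes and the number of members open in WT are not given at each setting. These counts are therefore not set beside the main shares. Read depth is unknown, and the losses of PAX1, OTX2 and GSX2, and of PAX7 at its TSSs, rest on peaks of low significance.

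With peaks of a −log10 q of at least 5, members lost in Y641F, A677G and H689A/F667I numbered 11, 8 and 6 in the whole gene window and 9, 5 and 4 at the TSSs, members retained numbered 15, 19 and 22 and 14, 19 and 22, and 2 members were closed at the TSSs in the GOF lines alone. The log2 ratios of cover were −1.53, −1.16 and −0.84 (TSSs −1.37, −0.96 and −0.72) and those of peak number −1.11, −0.75 and −0.56 (TSSs −0.86, −0.45 and −0.34). Cover above WT was seen for 0, 0 and 1 members.

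With an equal number of peaks per library, 1 member was lost in Y641F and 0 in A677G in the whole gene window, 0 and 0 at the TSSs, 1 was gained in Y641F and 2 in A677G in either window, and 0 were closed in the GOF lines alone in either window. The ratios of cover were −0.50, −0.43 and −0.27 (TSSs −0.43, −0.37 and −0.26). Those of peak number turned to 0.09, 0.10 and 0.09 (TSSs 0.17, 0.22 and 0.17). Cover above WT was seen for 3, 3 and 1 members. A TSS window of 2 kb gave 4 lost members in Y641F and 4 in A677G, and one of 500 bp gave 1 in H689A/F667I.

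Leaving out 1 library gave 3 to 8 members lost in Y641F in the whole gene window and 2 to 7 at the TSSs, both highest without Y641F replicate 2. Members lost in H689A/F667I ranged from 0 to 1 and members gained in A677G from 0 to 1, in both windows. Members with cover above WT ranged from 1 to 3 in Y641F, 2 to 5 in A677G and 4 to 6 in H689A/F667I.

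The limma fit for Y641F called 231 regions. It called 1175 without centring, 7 with quantile normalization, 0 on covered length, 118 on the fold averaged over covered length, 0 on fold times covered length, 0 with only the 2 lines and 115 with the stricter peaks. Leaving out 1 library gave 0 to 16. Its 3 member regions became 0 with quantile normalization, covered length, fold times covered length, only the 2 lines or any library left out (0 to 0), and 1 (PAX6) with the averaged fold. On covered length the log2 change turned to −0.60 for PAX6, −1.89 for CDX2 and −0.49 for SIX4. On fold times covered length it turned to −1.27 for CDX2 and −0.04 for SIX4. Both measures were centred on the median of each library, so these changes leave out the fall shared by all regions, and the fall in bp was larger. On −log10 p, limma called 24 regions in A677G, 1 of them at MSX1, and 1 in H689A/F667I. The GOF contrast, with 7 calls, had 303 without centring, 0 with quantile normalization, 0 on covered length, 104 on −log10 p, 3 on the averaged fold, 0 on fold times covered length, 32 with the stricter peaks and 0 to 7 with 1 library left out. Its member calls were 1 without centring (MSX1), 1 on −log10 p (MSX1) and 1 with the stricter peaks (PAX6), members named after their values were seen.

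With the replicate number as a block, limma called 142 regions in Y641F, 3 of them members'. The difference between the 2 replicates of a line correlated between lines at −0.016 to 0.037 over the 18787 regions open in all 8 libraries. Replicate 1 had fewer peaks than replicate 2 in each mutant and more in WT. Whether libraries with the same number shared a batch that acts on peak number was not tested. The settings that average the fold or multiply it by length, all settings for cover below or above WT, and the family values without 1 library were chosen after seeing the data.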
